A study of Mus musculus with 6 samples.

Results

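The genes described here are 36 genes of the endoplasmic reticulum (ER) stress and amino acid responses, measured in hearts of E10.5 mouse embryos without Rnd3 (RhoE) and in wild-type hearts. They are a list of names, drawn up with earlier results of these arrays known, and the rule that picks them uses no threshold on a difference: 14 ER chaperones and folding enzymes, 4 genes of ER-associated degradation (ERAD), 6 sensors and transcription factors, and 12 genes of the amino acid response. The array annotation gave 18193 genes with a symbol of their own, and all 36 were among them. For each gene the probe set with the highest mean log2 signal over the 6 arrays was used. A gene was tested if it lay above a low-signal limit, set on every array at the 40th percentile of its probe sets without controls (44.5 to 52.8), on at least 3 of the 6 arrays. This held for 12712 genes and for 35 of the 36, with Slc7a11 the exception, and 34 of the 36 lay above the limit on all 6 arrays.

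The groups were 3 arrays of RhoE KO hearts and 3 arrays of wild-type (WT) hearts, all from C57BL/6N embryos at E10.5. The KO is global and comes from a gene trap, an insertion that interrupts a transcript, so Rnd3 was targeted in every cell of the embryo and not in the heart alone. Per the series' design text the embryos were littermates and KO embryos die from this stage on. No label says whether an array holds 1 heart or several, so the p-values measure the spread between these arrays. Rnd3, an atypical small GTPase that restrains the kinase ROCK1, read 5.89, 12.3 and 121 on the KO arrays, against 909, 954 and 862 on the WT arrays (limma adjusted p = 0.0344), with KO arrays 1 and 2 below their low-signal limits and KO array 3 above its own, so no fold is given. Markers of cardiomyocytes were bright in both groups: Tnnt2, cardiac troponin T, averaged 31622 ± 664 in KO and 31018 ± 2414 in WT (SD, n = 3 each). Of the 11 listed, 7 had a lower and 4 a higher mean log2 signal in KO, and none passed the test. Their median log2 fold change, KO over WT, was -0.09, and 56.2% of all tested genes were negative.

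The arrays differed in more than the genotype. Xist, the RNA of the inactive X chromosome and a mark of female tissue, read 539, 8884 and 28.4 on KO arrays 1, 2 and 3, against 10251, 12474 and 11878 on the WT arrays. KO array 2 is thus the only KO array with a high Xist signal. The Y-linked genes Kdm5d, Uty and Eif2s3y rose in KO, and on KO array 2 they too lay above every WT array. Eif2s3y read 2214, 793 and 2339 on the KO arrays, against 551, 312 and 385 on the WT arrays. Results are given with it alone and without it where they turn on it. The genotype and the share of male tissue cannot be told apart over all 6 arrays. The endoderm of liver and yolk sac is a secretory tissue, and all 10 of its tested markers had a lower mean log2 signal in KO. The summed signal of the 14 markers found was 776 to 2491 in KO and 2001 to 8111 in WT, and Alb alone of them passed the test. Of these 14, Apoa4 lay below the limit on all 6 arrays, Fgb and Fga on all KO arrays, and Apoc2 on all WT arrays. The 6 foregut epithelium markers summed to 3094 to 5622 in KO and 5918 to 6661 in WT, with Cldn6 below the limit on all KO arrays. Of 6 tested macrophage markers, 4 had a higher and 2 a lower mean log2 signal in KO, and Lyz2 alone passed, as higher. Their median relative to the WT mean was -0.23, 0.96 and -0.34 on KO arrays 1, 2 and 3. The sum of all 7 listed was 872 to 2036 in KO and 825 to 930 in WT, highest on KO array 2. C1qa, one of the 7, lay below the limit on all WT arrays. Gapdh signal at the 3' end over that at the 5' end, a measure of RNA integrity, was 0.969 ± 0.0274 in KO and 1.11 ± 0.0175 in WT (SD, n = 3 each). For Actb this ratio overlapped between the groups, with 2.22 to 2.54 in KO and 2.35 to 2.62 in WT. The part of these differences in the results below was not tested. In bulk tissue, fewer cells of a type and less RNA per cell cannot be told apart.

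Secreted and membrane proteins fold in the ER with the help of chaperones such as Hspa5 (BiP), the lectins Calr and Canx, and protein disulfide isomerases. When folding lags, the sensors Ern1 (IRE1), Atf6 and Eif2ak3 (PERK) start the unfolded protein response. Ern1 splices the mRNA of the transcription factor Xbp1, which with the cleaved form of Atf6 induces chaperone and ERAD genes, while Eif2ak3 phosphorylates eIF2 alpha and so favours translation of Atf4. Lack of amino acids reaches the same Atf4 through the kinase Eif2ak4 (GCN2). Atf4 then induces genes of amino acid synthesis, uptake and tRNA charging, together with Ddit3 (CHOP), Trib3 and Chac1. The arrays read the amount of these RNAs and show neither Xbp1 splicing nor eIF2 alpha phosphorylation.

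Some of the promoters hold known elements of the ER arm or of the amino acid arm. They are shown here because Herpud1, the only gene of the 36 that passed the test, holds elements of both. It passed on 1 of its 2 probe sets. The genes were listed by name for their part in these responses, so the shares below are no independent support for a split into arms. RefSeq promoter windows (GRCm38.p6, 250 bases before to 50 after the start) were available for 32 of the 36 genes. Both strands were searched for the ER stress element (CCAAT and CCACG with 9 bases of any kind between them), the ER stress element II (ATTGG and CCACG with 1 base of any kind between them) and the C/EBP-ATF response element TGATGNAA. Below are the 250 bases before the start for Herpud1, for the reference chaperone gene Hspa5 and for Aars of the amino acid arm, with matches in capitals.
Herpud1, chr8:94386179-94386428, + strand: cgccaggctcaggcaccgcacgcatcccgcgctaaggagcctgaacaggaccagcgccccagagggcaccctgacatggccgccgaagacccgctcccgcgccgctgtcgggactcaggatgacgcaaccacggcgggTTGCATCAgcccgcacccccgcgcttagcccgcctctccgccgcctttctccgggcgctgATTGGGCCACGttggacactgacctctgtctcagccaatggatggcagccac
Hspa5, chr2:34771840-34772089, + strand: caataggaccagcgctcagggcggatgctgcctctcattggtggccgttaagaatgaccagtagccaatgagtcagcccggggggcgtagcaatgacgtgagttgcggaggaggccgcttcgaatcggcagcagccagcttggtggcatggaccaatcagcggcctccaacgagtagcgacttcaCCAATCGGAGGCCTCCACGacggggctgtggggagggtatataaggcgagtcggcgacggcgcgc
Aars, chr8:111033592-111033841, + strand: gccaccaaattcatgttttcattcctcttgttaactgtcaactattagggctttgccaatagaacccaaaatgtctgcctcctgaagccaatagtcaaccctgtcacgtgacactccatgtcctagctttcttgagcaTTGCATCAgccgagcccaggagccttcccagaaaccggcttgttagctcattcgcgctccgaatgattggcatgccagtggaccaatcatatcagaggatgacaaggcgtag
Herpud1 held an ER stress element II 52 to 42 bases before the start and a C/EBP-ATF response element 112 to 105 bases before it. It was the only one of the 32 with both kinds of element.

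The ER stress element was found in 8 of the 32 genes with a window, in 7 of 12 chaperone genes and in Syvn1 of the ERAD genes, against 0.119% of all 32851 windows. A gene was counted if any of its windows held the element, while the shares of all are per window. None of the 5 sensor or 11 amino acid response genes with a window held it. The matches are given in the direction of the element, with its fixed letters in capitals.
Calr, chr8:84847075-84847093, + strand: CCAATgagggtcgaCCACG
Canx, chr11:50325800-50325818, - strand: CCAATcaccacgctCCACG
Creld2, chr15:88819520-88819538, - strand: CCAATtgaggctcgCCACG
Dnajc3, chr14:118937827-118937845, + strand: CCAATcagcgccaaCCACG
Hsp90b1, chr10:86705533-86705551, + strand: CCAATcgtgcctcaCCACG
Hsp90b1, chr10:86705638-86705656, - strand: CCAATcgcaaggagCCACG
Hspa5, chr2:34772025-34772043, + strand: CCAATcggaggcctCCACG
Pdia6, chr12:17266491-17266509, + strand: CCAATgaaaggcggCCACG
Syvn1, chr19:6046532-6046550, + strand: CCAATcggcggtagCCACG
The C/EBP-ATF response element was found in 5 of the 11 amino acid response genes with a window (Aars, Asns, Chac1, Slc7a11 and Trib3) and in Herpud1, against 3.97% of all windows. The match in Trib3 and a further one in Aars lie after the start. The others are given with 6 bases on each side.
Aars, chr8:111033724-111033743, - strand: ctcggcTGATGcAAtgctca
Asns, chr6:7693219-7693238, - strand: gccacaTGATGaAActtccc
Chac1, chr2:119351043-119351062, - strand: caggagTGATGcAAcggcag
Herpud1, chr8:94386311-94386330, - strand: gcgggcTGATGcAAcccgcc
Slc7a11, chr3:50443647-50443666, + strand: gcatgaTGATGcAAattctc
Slc7a11, chr3:50443666-50443685, - strand: tgtggcTGATGcAAacctgg
The ER stress element II was found in Herpud1 and, after the start, in Dnajb11, against 0.0365% of all windows. Its last 5 letters, CCACG, are also the end of the ER stress element and alone stand in 32.8% of all windows, A match describes the letters of a window and is not a measured binding site.

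The KO hearts did not show a joint rise of stress genes. Of the 35 tested genes Herpud1 alone rose, none fell and 34 did not pass (limma on all 12712 genes, Benjamini-Hochberg adjusted p under 0.05). Over all tested genes 0.787% were called higher, 0.488% lower and 1.27% in either direction, and a single gene is too few to set against these shares. Below the threshold most of the genes leaned the other way: 28 of the 35 had a negative log2 fold change, KO over WT, against 56.2% of all tested genes, and their median was -0.16 against -0.04 over all tested genes. At an unadjusted p under 0.05 there were 12, namely 2 higher and 10 lower in KO, against 20.3% of all tested genes (8.54% higher and 11.8% lower). The groups did not overlap for 17, of which 2 were higher and 15 lower in KO, against 26.3% of all tested genes (10.8% higher and 15.5% lower). Genes of these lists were chosen with earlier results of these arrays known, so the counts describe the genes and are no independent support for a direction.

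**Figure D1:**
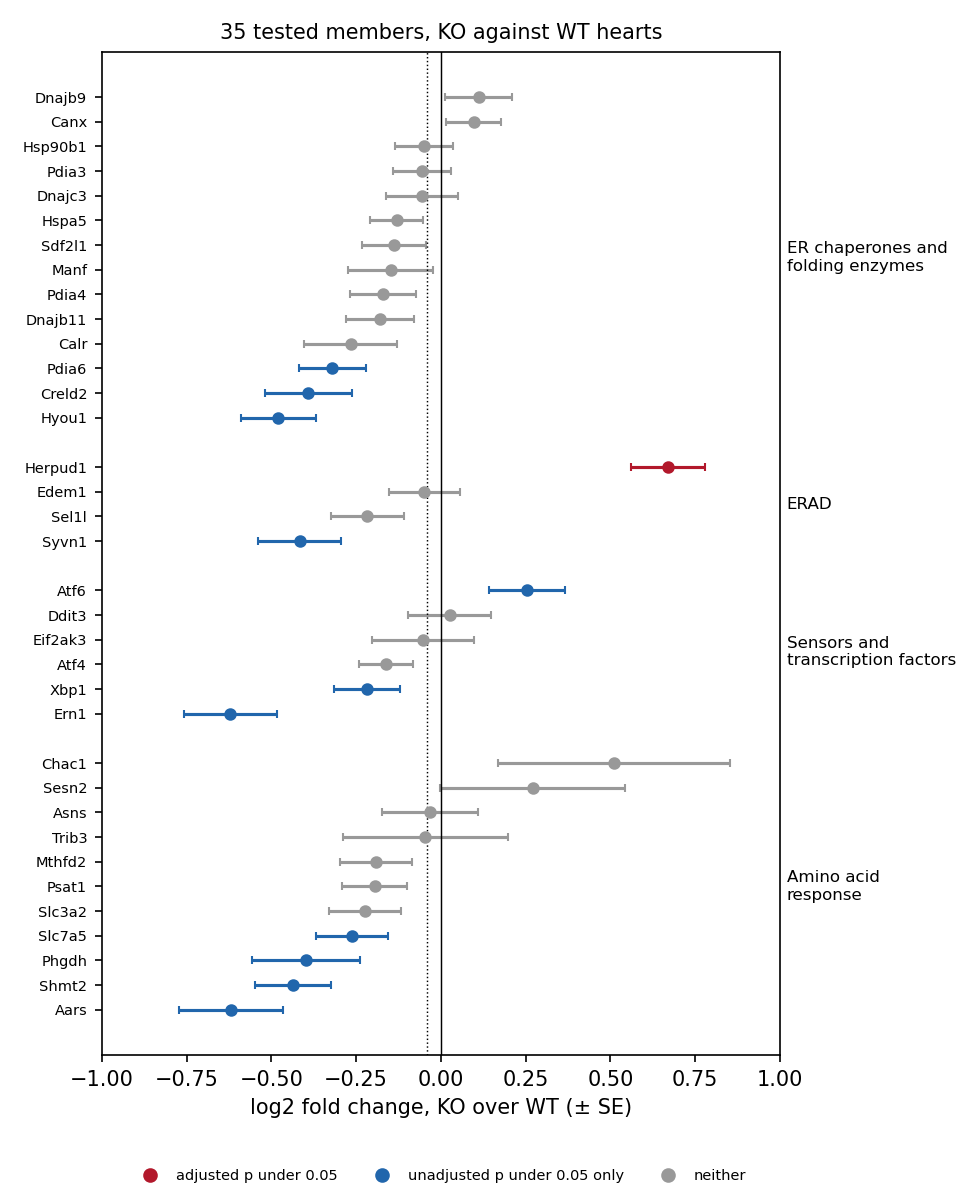
Log2 fold change, KO over WT, with its standard error for the 35 tested genes in 4 role groups, highest to lowest within each group; the dotted line is the median of all 12712 tested genes (-0.04). Herpud1 (0.67) is the only gene past the adjusted threshold, and 28 of the 35 points lie below 0.

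The chaperones and folding enzymes lay slightly lower in KO, with a median log2 fold change of -0.14 over 14 genes, none past the test and 12 negative. Hyou1, an Hsp70-like chaperone that serves as exchange factor for Hspa5, read 1132, 1257 and 982 on the KO arrays, against 1554, 1640.2 and 1488 on the WT arrays. All 3 KO values lay below all WT values, by -0.48 on the log2 scale (SE 0.11, limma adjusted p = 0.0582). Pdia6, a protein disulfide isomerase, read 4404, 3666 and 4371 in KO and 5235, 5565 and 4711 in WT (-0.32, SE 0.10, limma adjusted p = 0.109). Creld2, an ER-resident protein with disulfide isomerase activity, read 1966, 1432 and 2041 in KO and 2371, 2246 and 2433 in WT (-0.39, SE 0.13, limma adjusted p = 0.128). In both genes the groups did not overlap and KO array 2 was the lowest of all arrays.

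Dnajb11 and Sdf2l1, partners of Hspa5 that form a complex with each other in the ER, also had KO values below all WT values, but by small margins. Dnajb11 read 1385, 1483 and 1447 in KO and 1806, 1571 and 1521 in WT (-0.18, SE 0.10). Sdf2l1 read 1918, 1694 and 1911 in KO and 2142, 2002 and 1926 in WT (-0.14, SE 0.09), with the nearest values of the groups almost touching. The highest value of the group was that of Dnajb9, a co-chaperone that binds Ern1 and is a classical target of Xbp1, with 2703, 3036 and 2884 in KO and 2978, 2593 and 2431 in WT (0.11, SE 0.10, limma adjusted p = 0.563). The other 8 chaperone genes had log2 fold changes from -0.27 to 0.10 and groups that overlapped. Among them Hspa5, the usual readout of the unfolded protein response, ranged from 21759.6 to 24802 in KO and from 23102 to 27199.7 in WT. Its difference was -0.13 with a 95% interval from -0.30 to 0.04, so a rise by as much as Herpud1's lies outside the interval. Hsp90b1 (GRP94) had -0.05 (interval from -0.24 to 0.14) and Canx 0.10 (interval from -0.08 to 0.27).

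Among the 4 ERAD genes, Herpud1 rose and the ubiquitin ligase gene Syvn1 and its partner Sel1l were lower in KO on their main probe sets. Herpud1, an ER membrane protein that brings ubiquitin ligases and substrates together, read 1066, 1135 and 1267 in KO, against 772, 672 and 732 in WT. The lowest KO array was well above the highest WT array. The fitted difference between the groups was 1.59-fold (log2 0.67, SE 0.11, limma adjusted p = 0.0352), and the gene ranked 25 by p among all tested genes. Syvn1 (Hrd1), the ligase at the centre of ERAD, read 927, 782 and 1029 in KO and 1335, 1145 and 1158 in WT (-0.42, SE 0.12, limma adjusted p = 0.0988). Sel1l, the adaptor that stabilises Syvn1, read 2325, 1853 and 2230.3 in KO and 2673, 2402 and 2349 in WT (-0.22, SE 0.11, limma adjusted p = 0.280). The groups did not overlap for either gene. Edem1, a lectin that hands misfolded glycoproteins to the ligase, had -0.05 with overlapping groups (limma adjusted p = 0.829).

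The Herpud1 call rested on 1 probe set and on every WT array. The gene's other probe set, also above the limit on all arrays, read 646, 552 and 433 in KO and 539.7, 638 and 719.9 in WT. There the groups overlapped and the sign was opposite (-0.23, SE 0.16, limma adjusted p = 0.507, fitted over the 23339 probe sets above the limit on at least 3 arrays). With both probe sets averaged the difference was 0.22 (limma adjusted p = 0.351). The call was also missed without WT array 1, 2 or 3 (adjusted p = 0.150, 0.187 and 0.114) and without KO array 3 (adjusted p = 0.122), with log2 fold changes from 0.60 to 0.72. Where the 2 probe sets lie on the transcript was not analysed here.

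**Figure D2:**
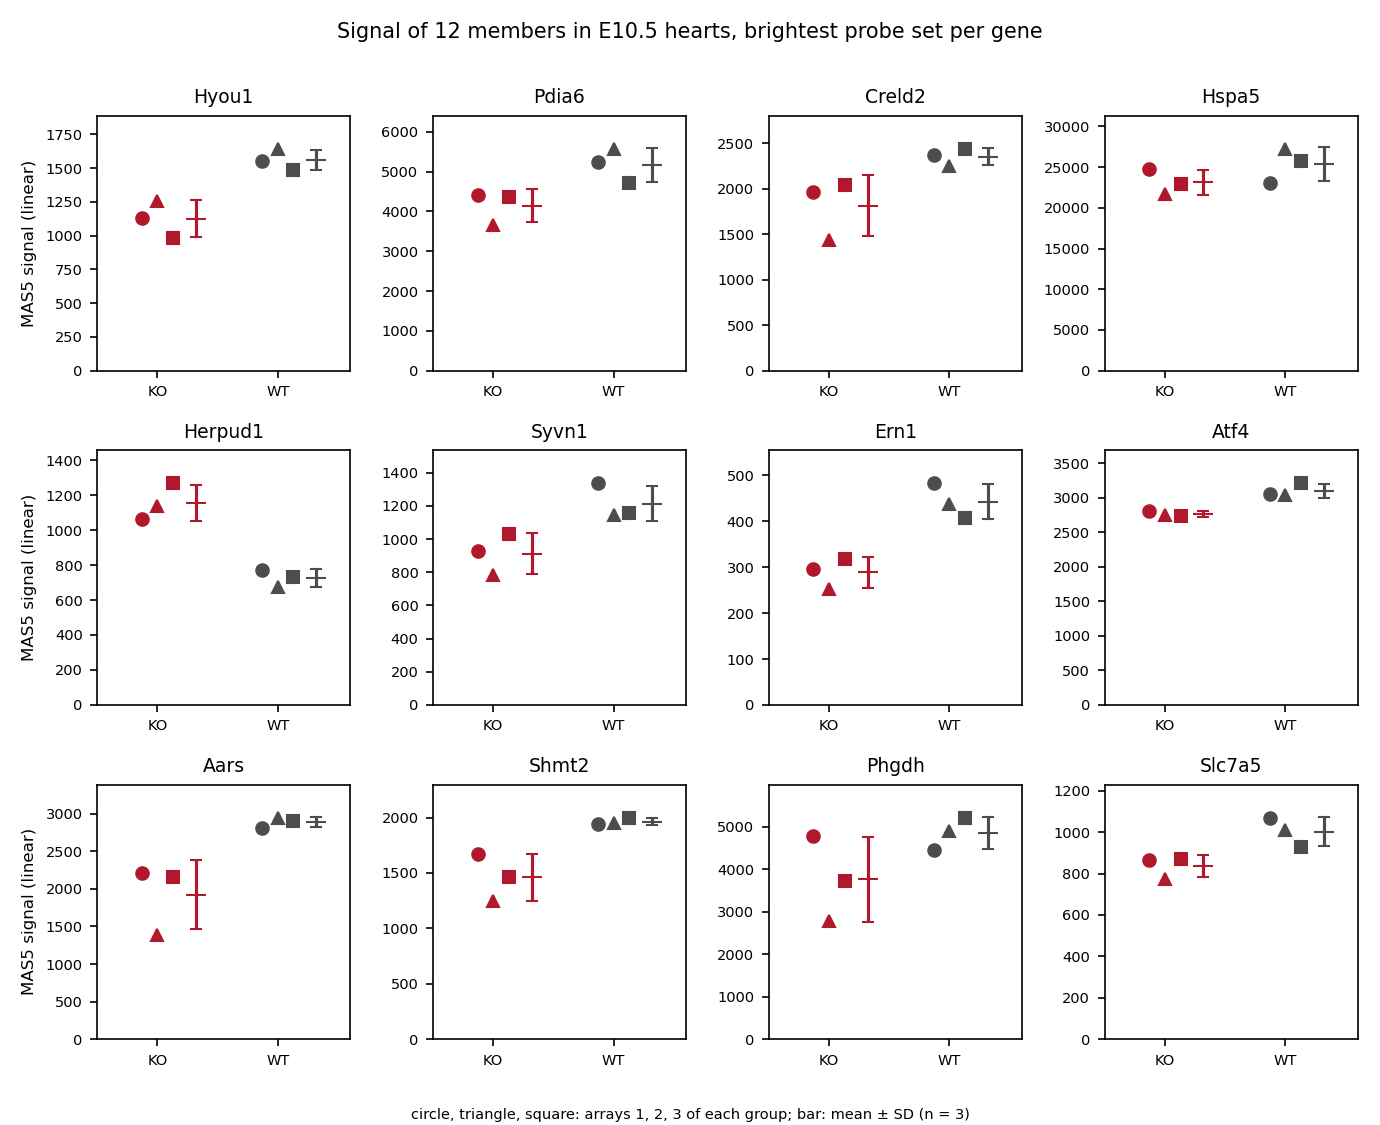
MAS5 signal (linear scale from 0) of 12 of the genes on each KO array (red, left) and each WT array (grey, right), with the mean and SD of each group (n = 3). Herpud1 lies higher on all 3 KO arrays (1066 to 1267, against 672 to 772 in WT). Hyou1, Pdia6, Creld2, Syvn1, Ern1, Atf4, Aars, Shmt2 and Slc7a5 lie lower on all 3. KO array 2 (triangle) is the lowest array for Pdia6, Creld2, Hspa5, Syvn1, Ern1, Aars, Shmt2, Phgdh and Slc7a5.

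The 3 sensors did not move as a group. Ern1, the kinase and RNase that splices Xbp1 mRNA, read 296, 252 and 318 in KO, against 482, 438 and 408 in WT. The KO values lay below all WT values with the lowest p among the sensors and factors (-0.62, SE 0.14, limma adjusted p = 0.0536). Atf6, the sensor that is cleaved to a transcription factor, read 619, 582 and 610.4 in KO and 499.6, 548 and 473 in WT (0.25, SE 0.11, limma adjusted p = 0.230). Its 2 other tested probe sets had -0.20 and -0.25. Eif2ak3, the kinase PERK, had -0.05 (SE 0.15) with overlapping groups.

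Of the transcription factors downstream, Xbp1 and Atf4 leaned lower in KO on their main probe sets and Ddit3 hardly differed. None of them passed the test. Xbp1 read 8668, 7009 and 7812 in KO and 9084, 8242 and 9945 in WT (-0.22, SE 0.10, limma adjusted p = 0.242), and KO array 1 overlapped the WT range. Atf4, which acts in both responses, read 2808, 2751 and 2732 in KO and 3046, 3031 and 3204 in WT. The groups did not overlap, and the difference was small (-0.16, SE 0.08, limma adjusted p = 0.278). A further tested probe set of Atf4 had -0.28 with overlapping groups (limma adjusted p = 0.248). Ddit3, the pro-apoptotic factor CHOP, ranged from 346 to 383 in KO and from 346 to 388 in WT (0.03, 95% interval from -0.24 to 0.30). A rise of Ddit3 as large as that of Herpud1 lies outside this interval.

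In the amino acid arm 9 of 11 tested genes had a negative log2 fold change and none passed, with a median of -0.20. With probe sets averaged this median was -0.0166, while that of the ER arm was -0.14. Aars, which charges tRNA with alanine, read 2216, 1389.7 and 2158 in KO, against 2811, 2947 and 2906 in WT. The WT arrays lay close together and all KO arrays below them, with KO array 2 far lower than the other 2 (-0.62, SE 0.15, limma adjusted p = 0.0669). Shmt2, the mitochondrial enzyme that turns serine into glycine and a one-carbon unit, read 1676, 1248 and 1462 in KO and 1941, 1949 and 1999 in WT (-0.44, SE 0.11, limma adjusted p = 0.0746). Mthfd2, the next enzyme of the mitochondrial folate path, read 1058, 926 and 1098 in KO and 1111, 1251 and 1154 in WT (-0.19, SE 0.11).

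The genes of serine synthesis had negative values on their main probe sets, none past the test. Phgdh, the first enzyme of that path, read 4777, 2776 and 3727 in KO and 4445, 4892 and 5208 in WT (-0.40, SE 0.16, limma adjusted p = 0.192). KO array 1 lay within the WT range, so the groups overlapped. Psat1, the second enzyme, read 1579.8, 1517 and 1513 in KO and 1786, 1894 and 1611 in WT (-0.20, SE 0.10, limma adjusted p = 0.275). Both chains of the large neutral amino acid transporter, a heterodimer of Slc7a5 (LAT1) and Slc3a2, had KO values below all WT values. Slc7a5 read 864, 773 and 873 in KO and 1069.7, 1009 and 929.5 in WT (-0.26, SE 0.11, limma adjusted p = 0.196). Slc3a2 read 850.3, 729 and 839 in KO and 898, 980.1 and 941 in WT (-0.22, SE 0.11, limma adjusted p = 0.262).

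The genes most used as readouts of Atf4 had groups that overlapped. Asns, asparagine synthetase, ranged from 1219.7 to 1784 in KO and from 1478 to 1752 in WT (-0.03, 95% interval from -0.34 to 0.28). Trib3, a pseudokinase that inhibits Atf4, ranged from 109 to 196 in KO and from 125 to 172 in WT (-0.05, interval from -0.58 to 0.49). Chac1, which degrades glutathione, had the highest value of the arm with 69.5, 97.2 and 89.8 in KO and 49.6, 87.7 and 48.3 in WT (0.51, SE 0.34, limma adjusted p = 0.436). It was above the low-signal limit on 3 KO arrays and 1 WT array, and its groups overlapped. Sesn2, a leucine sensor that restrains mTORC1, had 0.27 (SE 0.27) with overlapping groups. Slc7a11, the cystine transporter, was not tested: it read 27.9, 60.1 and 4.10 in KO and 9.97, 16.2 and 30.9 in WT, above the limit on KO array 2 only. The 95% intervals of Chac1 (up to 1.26) and Sesn2 (up to 0.87) are wide and hold a rise as large as that of Herpud1.

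Set side by side, the ER arm (18 chaperone and ERAD genes) had a median of -0.14 and the amino acid arm (11 tested genes) a median of -0.20, against -0.04 over all tested genes. This order turned with probe sets averaged. On each array the median log2 signal of an arm was also taken relative to the WT mean. For the ER arm it was -0.08, -0.21 and -0.10 on KO arrays 1, 2 and 3, against 0.05, -0.00234 and -0.07 on WT arrays 1, 2 and 3. For the amino acid arm it was -0.14, -0.37 and -0.22 on the KO arrays, against -0.06, 0.03 and 0.00129 on the WT arrays. Every KO array lay below every WT array in both arms, and for the ER arm KO array 1 and WT array 3 almost touched. For the 14 chaperone genes without the ERAD genes these arrays overlapped. The medians of all tested genes were -0.01, -0.03 and -0.04 on the KO arrays and within 0.01 of 0 on the WT arrays. There too every KO array lay below every WT array, with -0.0113 on KO array 1 and -0.00497 on WT array 1 the nearest. The separation by array is thus not particular to the arms.

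**Figure D3:**
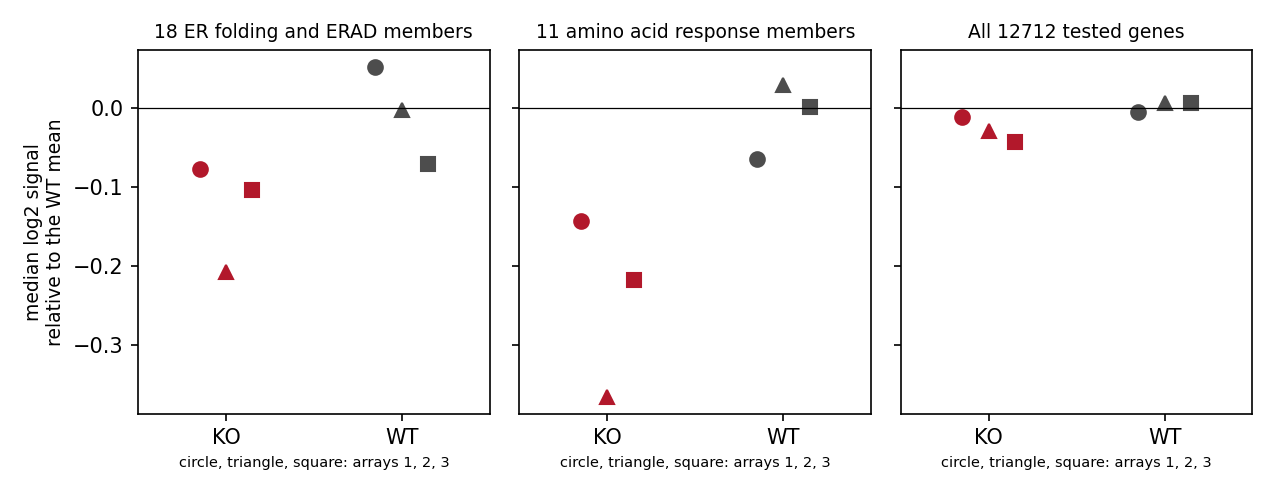
Median log2 signal relative to the WT mean on each KO array (red, left) and WT array (grey, right), for the ER arm (18 genes), the amino acid arm (11 tested genes) and all 12712 tested genes. KO array 2 (triangle) is the lowest in both arms (-0.21 and -0.37), while the medians of all genes stay between -0.04 and 0.01.

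The lean was largest on KO array 2. It was the lowest of the 3 KO arrays for 22 of the 35 genes, among them 10 of 14 chaperone and 7 of 11 amino acid response genes, against 37.1% of all tested genes. Without it the medians were -0.08 for the ER arm and -0.15 for the amino acid arm. Herpud1 still passed there (0.68, limma adjusted p = 0.0449) and Hyou1 passed as lower (-0.56, limma adjusted p = 0.0449), both only just. Of all tested genes 0.511% were called there in either direction and 0.228% as lower. With KO array 2 alone against the WT arrays, which leaves part of the difference in Y-linked genes in place, the medians were -0.21 and -0.37. In that fit Herpud1 passed as higher (0.65, limma adjusted p = 0.0154) and 10 of the 35 genes as lower, against 7.17% of all tested genes called lower. The 10 were Aars, Calr, Creld2, Ern1, Manf, Pdia6, Phgdh, Sel1l, Shmt2 and Syvn1. The lone array was assumed to vary as the WT arrays do, and of all 6 arrays it had the highest sums of macrophage and endothelium markers (2036 and 6081) and the lowest sums of foregut epithelium and cardiomyocyte markers (3094 and 263084). The median of the 11 cardiomyocyte markers on it was -0.17 relative to the WT mean, with 9 of 11 below that mean. The part of these markers was not tested.

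Many of the genes are read by more than 1 probe set, which tells how far a value holds for the gene. Of the 36 genes, 24 had more than 1 tested probe set, with 41 further ones, of which 28 had the sign of the main probe set and 13 the opposite sign. In 14 of the 24 genes all tested probe sets had the same sign. Hyou1 was among them, with -0.54 and -0.51 on its 2 further probe sets. Syvn1 had -0.48 on its second probe set, which read 543, 376 and 425 in KO and 672, 626 and 561 in WT. Aars had -0.68 on its second probe set, with 832, 397 and 792 in KO and 1004, 1119.7 and 949.8 in WT, and Phgdh had -0.50, -0.50 and -0.34 on its 3 others.

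Calr, the soluble lectin chaperone, differed more on its dimmer probe sets. They had -0.40 and -0.42 with groups that did not overlap, against -0.27 with overlap on the brightest. Hsp90b1, the ER form of Hsp90, had -0.05 on its brightest probe set and -0.46 on the other (SE 0.10, limma adjusted p = 0.0665), which read 4529, 4525 and 4932 in KO and 7498, 6192 and 5691 in WT. In the other 10 genes (Asns, Atf6, Canx, Herpud1, Hspa5, Psat1, Sel1l, Shmt2, Trib3 and Xbp1) at least 1 further probe set had the opposite sign. Shmt2 had -0.44 and -0.42 on 2 probe sets and 0.39 and 0.76 on the other 2, Psat1 had -0.20 and 0.26, and Xbp1 had -0.22, -0.16 and -0.55 on 3 and 0.14 on the fourth. In the second Psat1 probe set and the last Xbp1 probe set every KO array was above every WT array. Atf6 had the opposite sign on both of its others and Sel1l on 2 of 4. For these 10 genes the direction depends on the probe set read.

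**Figure D4:**
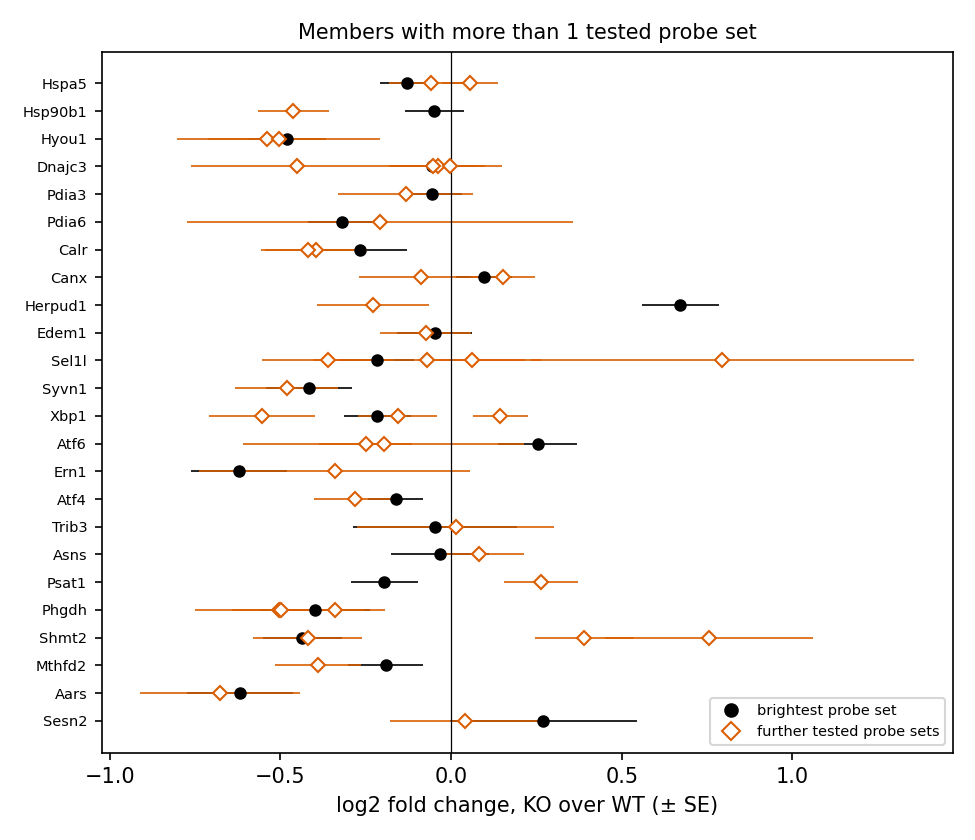
Log2 fold change, KO over WT, with its standard error for each tested probe set of the 24 genes with more than 1; filled circles are the brightest probe sets used throughout and open diamonds the others. Hyou1, Syvn1, Aars and Phgdh lie on the negative side with all their probe sets, while Herpud1, Psat1, Shmt2 and Xbp1 have probe sets on both sides of 0.

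Genes of the same pathways outside the 36 gave no calls, and most had negative values. Of 54 further genes of ER folding, translocation and ERAD, 51 were tested, none passed, 36 were negative and the median log2 fold change was -0.12. At an unadjusted p under 0.05, 3 were higher and 12 lower in KO, against 8.54% and 11.8% of all tested genes, of which 56.2% were negative. The 4 with the smallest p were P4hb, the founding protein disulfide isomerase (7573 ± 1406 in KO and 10495 ± 258 in WT, log2 -0.49, limma adjusted p = 0.0628), the ERAD channel gene Derl3 (79.1 ± 22.3 and 158 ± 12.5, -1.03), Tmbim6, an ER membrane inhibitor of cell death (2677 ± 42.2 and 3344 ± 235, -0.32), and the prolyl isomerase gene Fkbp7 (1641 ± 469 and 1080.3 ± 41.5, 0.57), with SD over n = 3 and KO first. The first 3 were lower and Fkbp7 higher on all KO arrays than on any WT array.

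Of 55 further genes of the amino acid response, tRNA charging and one-carbon metabolism, 52 were tested, none passed, 36 were negative and the median was -0.09. At an unadjusted p under 0.05, 4 were higher and 12 lower in KO, beside the same shares of all tested genes. The 18 tested tRNA synthetase genes besides Aars had a median of -0.25, with 14 negative and 8 lower at an unadjusted p under 0.05 (against 11.8% of all tested genes), a group singled out after its values were seen. Hars, for histidine, averaged 4871 ± 413 in KO and 6215 ± 152 in WT (SD, n = 3 each, log2 -0.35, limma adjusted p = 0.0608). Shmt1, the cytosolic partner of Shmt2, averaged 666 ± 78.4 in KO and 872 ± 30.0 in WT (-0.39, limma adjusted p = 0.0981). On the other side were Nfe2l2 (NRF2), the factor of the oxidative stress response, with 1889, 1939 and 1866 in KO and 1471, 1441 and 1506 in WT (0.37, limma adjusted p = 0.0609), and the aspartate aminotransferase gene Got1 with 1358, 1751 and 1785 in KO and 1219, 1223 and 1003 in WT (0.50, limma adjusted p = 0.0741). Neither passed, and in both the groups did not overlap.

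Most genes with an ER stress element leaned lower in KO, as did most genes of the ER arm, to which all of them belong. Of the tested genes with a C/EBP-ATF response element 3 of 5 were negative, and of those with an ER stress element II 1 of 2. The 8 genes with an ER stress element had log2 fold changes from -0.42 (Syvn1) to 0.10 (Canx), with a median of -0.20 and 7 of 8 negative. Over all tested genes the median was -0.04 and 56.2% were negative. Over the 18 genes of the ER arm, these 8 included, the median was -0.14 and 15 were negative. The 5 tested genes with a C/EBP-ATF response element ran from -0.62 (Aars) through -0.05 (Trib3), -0.03 (Asns) and 0.51 (Chac1) to 0.67 (Herpud1). Of the genes with an ER stress element II, Herpud1 had 0.67 and Dnajb11 -0.18.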

How the data were processed

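Heart RNA of 6 samples, 3 KO and 3 WT by their titles, was hybridised to Affymetrix mouse arrays. The authors deposited 1 linear intensity (MAS5 signal) for each probe set. The submitters' processing notes name MAS5 and Expression Console, with versions and settings not given in the sources used here. The trimmed mean (2% at each end) of every array was 500.003, and no further scaling was applied. Control probe sets (64) were left out. Of the other 45037, 34945 had 1 gene symbol, 932 several and 9160 are unnamed here. For arrays, their number limits the precision.

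Signals were taken to log2 and tested with limma 3.58.1 under R 4.3.3, as KO minus WT with eBayes and a variance trend on intensity. P-values were adjusted by Benjamini-Hochberg over 12712 genes, with a threshold of 0.05, and SE is the standard error from limma. The fit was tested on data simulated with the means and spreads of these genes. It recovered 36.4% of 1.5-fold and 72.2% of 2-fold changes, so a gene that did not pass may still differ. Genes given by array are those past the threshold, with an unadjusted p under 0.05, with groups that did not overlap, or highest or lowest in their role group. Hspa5, Hsp90b1, Canx, Ddit3, Asns, Trib3, Sesn2 and the further probe sets were singled out after their values were seen. Genes of the further lists named are the 4 with the smallest p in each. The genes and lists were chosen with earlier results of these data known. Alternatives covered normalization, filters, offsets, probe sets, variance model, array weights, a replicate block, the threshold and leaving out arrays. Figures were drawn with matplotlib 3.10.9.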

Additional observations from a re-analysis of the deposited data

How the results depend on the processing

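The number of genes called over the whole array, 162 (100 higher and 62 lower in KO), was 312 with median centring (253 higher and 59 lower), 291 with the stricter filter, 542 with array weights, 805 at an adjusted p of 0.1 and 1551 with KO array 2 alone, but 1 without the filter, 1 without the intensity trend, 0 with probe sets averaged (1752 at an unadjusted p under 0.05, limma) and 0 to 916 with single arrays left out. Of the genes described, the 1 called higher, Herpud1, became 0 without the filter (adjusted p = 0.0518), without the intensity trend (adjusted p = 0.206) and with averaged probe sets, and 0 to 1 with single arrays left out. It stayed past the threshold in 10 of 17 alternatives, with adjusted p from 0.0112 to 0.351. The count called lower, 0, was 2 with the stricter filter (Ern1 and Hyou1), against 0.971% of all tested genes called lower. With array weights it was 4 (Aars, Ern1, Hyou1 and Shmt2), against 1.87%. At an adjusted p of 0.1 it was 5, where 805 of all tested genes were called in either direction. With single arrays left out it was 0 to 5, the 5 without KO array 1, against 3.61% of all tested genes called lower there. The median of the ER arm lay between -0.21 and -0.08 in all alternatives. That of the amino acid arm was -0.0166 with probe sets averaged and -0.37 with KO array 2 alone, and otherwise moved by less than the spread between replicates. With probe sets averaged the sign turned for Sel1l (0.0414), Atf6 (-0.0645), Psat1 (0.0340) and Shmt2 (0.0724). With further probe sets fitted on their own, an alternative chosen after seeing the data, it turned for Herpud1 (-0.23), Sel1l (0.0602 and 0.80), Xbp1 (0.14), Atf6 (-0.20 and -0.25), Psat1 (0.26) and Shmt2 (0.39 and 0.76). The cause was not tested. The replicate block gave 189 calls over all genes, 1 gene described here higher and 0 lower, and changed no call among these genes. Deviations of same-numbered arrays correlated at 0.0182, 0.0573 and 0.0150, against -0.0371 to 0.0206 for arrays of different numbers. No label says that a number marks a litter, so the numbers were not taken as pairs.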
